A study of Gallus gallus with 2 samples.

Results

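The cells described here were chicken (Gallus gallus) embryo cells whose transcriptomes held TBXT, MNX1 and APELA RNA together and little or no SHH RNA. They numbered 161 of 12336 cells kept, or 1.31% with an exact 95% interval of 1.112% to 1.521% that covers counting error only. A cell was kept with at least 4000 gene molecules and at most 20% of them mitochondrial. Its level of a gene was the number of molecules per 10000 gene molecules. A cell was chosen at a level of at least 2 for TBXT, at least 1 for MNX1 and at least 1 for APELA, with SHH below 3.

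The tissue was the posterior end of wild-type (WT) embryos at the 35-somite stage, dissected 72 h after the start of incubation. Per the labels, embryos were controls or had received 20 uL of homocysteine, an amino acid of the methionine cycle, at 19 mM for the high dose or 0.5 mM for the low dose. Cells of each tissue were tagged with a lipid-anchored DNA barcode, pooled and captured on the BD Rhapsody microwell system. No label tied a barcode to a treatment, so the table was 1 pooled sample, control and treated embryos were not compared, and no difference below has a replicate or a test.

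At this stage the chick body is still being extended by the tailbud, the mass of cells at its tip. TBXT, also called Brachyury, is a T-box transcription factor of the primitive streak, the tailbud and the notochord. MNX1 is a homeobox factor best known from motor neurons and pancreas that is also made in the notochord and the caudal end of the embryo. APELA is a short secreted peptide that signals through the apelin receptor, APLNR. CYP26A1 degrades retinoic acid and in vertebrate embryos keeps the tail end low in it, while FGF and WNT ligands and the CDX factors maintain growth of the axis there.

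The table held 60000 barcodes, of which 20.56% were kept, and the kept cells held 446307008 gene molecules. The 161 members had a median of 29924 gene molecules (quartiles 23208 and 44068, range 4173 to 149452) and 6118 genes, against 29896 molecules and 6116 genes in the 12175 other kept cells. Mitochondrial molecules made up a median of 13.3% in members and 12.7% in the others. Doublets were not removed: 5 members held over 100000 molecules, 1 carried more than 1 lipid barcode, and 1 had haemoglobin levels over 200. The lipid barcode counts were in the same table, over the same 60000 barcodes.

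The levels of the chosen genes varied widely from cell to cell, and they are given as a description since the rule used them. TBXT had a median level of 7.39 per 10000 (2.01 to 35.9), MNX1 of 9.14 (1.02 to 44.4) and APELA of 4.08 (1.003 to 19.7). SHH, the signalling protein secreted by notochord and floor plate, was at 0 in 132 of the 161 cells and reached at most 2.82. The calls rested on more than single molecules in nearly all members, with at least 3 molecules of TBXT in 157, of MNX1 in 159 and of APELA in 154. Of 1715 kept cells with TBXT at 2 or more and SHH below 3, 321 passed the MNX1 limit, 262 the APELA limit and 161 both, so members were 9.39% of such cells. The SHH limit removed 1 cell only, although 20 of the 344 kept cells positive for MNX1 and APELA passed an SHH level of 3.

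**Figure D1:**
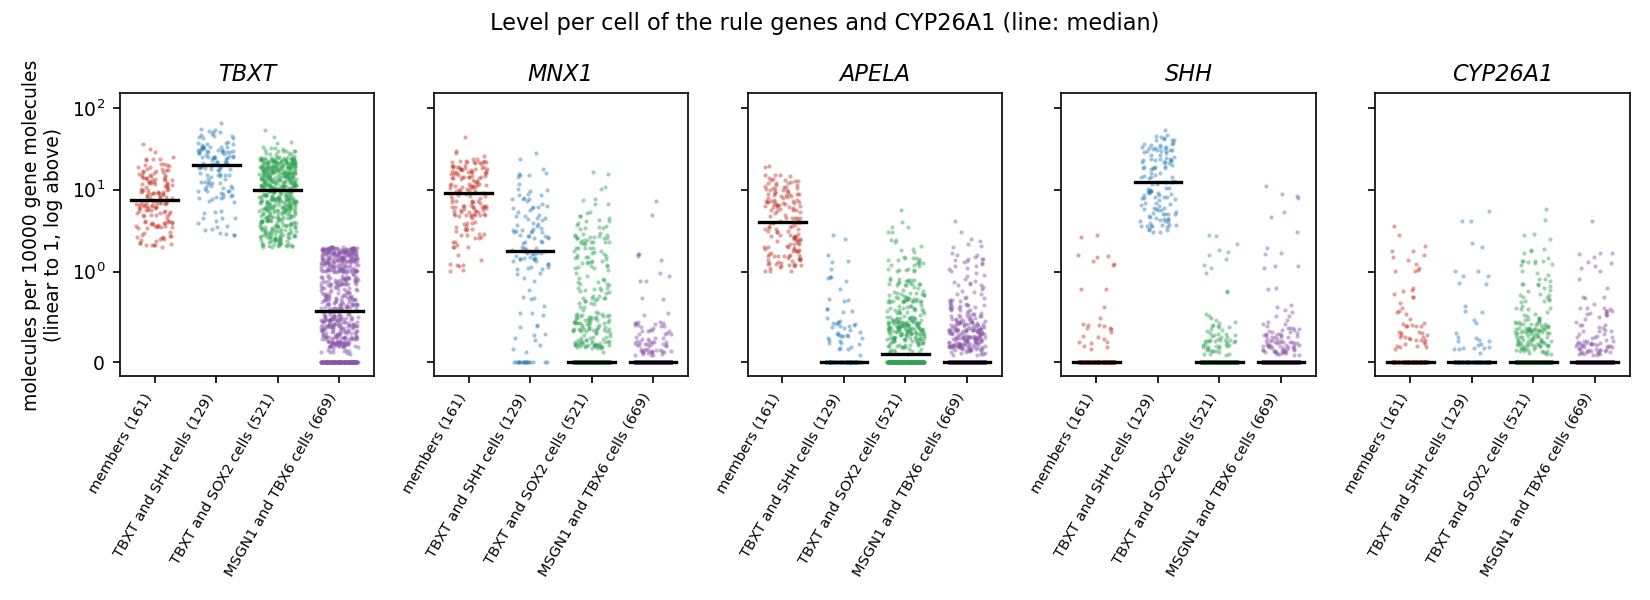
Level per cell of TBXT, MNX1, APELA, SHH and CYP26A1 in molecules per 10000 gene molecules (axis linear up to 1 and logarithmic above) in the 161 members and in 129 TBXT and SHH cells, 521 TBXT and SOX2 cells and 669 MSGN1 and TBX6 cells. Points are cells and lines are medians. The rule sets the TBXT, MNX1, APELA and SHH limits of the members, while CYP26A1, which it did not use, has a median of 0 in every group.

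Summed levels just inside the limits were above those just outside for some genes and limits and below for others. The 19 members with TBXT between 2 and 3 had 17.6 molecules of KCNMB4 per 1000000 gene molecules summed over the cells (CPM) and 141 CPM of FGF8, and the 32 cells excluded with TBXT between 1 and 2 had 44.1 and 78.3 CPM. The 9 members with MNX1 between 1 and 2 and the 32 excluded cells with MNX1 above 0 but below 1 had 17.4 and 15.6 CPM of KCNMB4. FGF8 stood at 289 and 412 CPM and FOXA2 at 3.48 and 13.1 CPM in the same sets. The sets are small, FOXA2 and KCNMB4 rested on very few molecules in the 9 members, and no interval was computed. The 43 members with APELA between 1 and 2 had 39.1 CPM of KCNMB4, against 17.3 CPM in 78 excluded cells with APELA above 0 but below 1.

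The genes that chose the members were also found elsewhere in the tissue. After each cell was thinned to 4000 molecules, APELA was found in 72.7% of members, in 12.3% of other kept cells, in 26.2% of 298 cells positive for the endothelial genes CDH5 and KDR, in 13.2% of 1967 cells positive for the limb genes TBX4 and PRRX1, and in 1.05% of 191 haemoglobin-high cells. MNX1 was found in 90.7% of members, 5.20% of other kept cells, 0.336% of the endothelial cells, 1.88% of the limb cells and 1.57% of the haemoglobin-high cells. TBXT was found in 91.3%, 18.7%, 6.71%, 5.74% and 4.19% of the same groups. Unthinned, APELA was found in 46.9%, MNX1 in 16.01% and TBXT in 44.5% of other kept cells. Median depths were 33462.5 molecules in the endothelial, 30916 in the limb and 21882 in the haemoglobin-high cells. In 25101 barcodes of under 500 molecules, taken as a gauge of free RNA, TBXT stood at 108 CPM, MNX1 at 33.4 CPM and APELA at 38.3 CPM, against 837, 922 and 485 CPM in members.

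The fourth marker of the label, CYP26A1, was higher in members by summed level but not by the share of cells after thinning. It stood at 28.5 CPM in members (exact Poisson interval 24.3 to 33.1) and at 17.4 CPM in other kept cells, 1.63-fold higher, and was found in 33.5% of members and 22.3% of the others before thinning. After thinning the shares were 4.97% (2.17% to 9.56%) of members and 5.27% (4.88% to 5.69%) of the others. It was on 167 molecules in 54 members, of which 43 molecules, or 25.7%, came from 1 cell. The 8 members with SHH between 1 and 3 had 118 CPM and the other 153 had 22.1 CPM, and without the 10% deepest cells the 146 members left had 21.3 CPM. On the log2 scale the difference of 0.71 became 0.33 with SHH below 1 and 0.34 without the 10% deepest cells, and was 0.54 (0.14 to 0.91) among cells between the depth quartiles of the members. The cells are named here by the genes of the rule, since where they lay in the embryo was not recorded. CYP26A1 was higher outside the members, at 66.3 CPM, in the 163 kept cells positive for MNX1 and APELA with TBXT below 2 and SHH below 3.

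Of 8633 genes with an average of at least 10 CPM in members and other kept cells, 226 (2.62%) were over 2-fold higher and 255 (2.95%) over 2-fold lower in members, and the median log2 ratio of all 8633 was -0.04. These are descriptions, since the same cells were chosen on their RNA. The genes named next are those with a symbol that were found in at least 25% of members, or of other kept cells for the lower ones. The gene with the largest ratio was KCNMB4, the beta subunit of calcium-activated potassium channels (RefSeq on GRCg7b, chromosome 1, 35944915 to 35955888). KCNMB4 stood at 50.9 CPM in members (45.3 to 57.1) and 2.03 CPM in other kept cells, a 25.1-fold ratio (21.9 to 28.6). It was found in 102 members, 63.4%, and in 5.86% of other kept cells, with a median level of 0.352 and a maximum of 3.74 per 10000. After thinning it was in 19.3% of members (13.5% to 26.2%) and in 0.632% of other kept cells. No single cell carried it, as the 5 members with the most molecules gave 18.4% of the 299.

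GFRAL, a member of the GDNF receptor alpha family that is the brainstem receptor for GDF15 in mammals, stood at 21.3 CPM in members and 1.06 CPM in the others, 20.1-fold higher (16.4 to 24.5). IL20RA, a subunit of the receptors for interleukin-20 family cytokines, stood at 42.9 and 2.60 CPM, 16.5-fold higher (14.3 to 18.9). GFRAL was found in 59 members and IL20RA in 93. Both were lower in each of the 3 groups of like cells described further on. GFRAL was not lower, however, in the 163 cells with MNX1 and APELA but TBXT below 2, also described there. MYO3A, an unconventional myosin with a kinase domain known from hair cells, stood at 151 CPM in members and 11.7 CPM in the others, but at 272 CPM in TBXT and SHH cells. Other genes known from neurons or signalling among the 20 with the largest ratio were the protein kinase A anchor SPHKAP (19.9 against 1.996 CPM), the serotonin receptor HTR4 (29.8 against 3.45), KCNIP1 (27.8 against 4.25) and CNTFR, the alpha receptor for ciliary neurotrophic factor (99.2 against 16.2).

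Transcription factors and ligands of the growing axis were also among these 20. FGF8, the main FGF ligand of the tail end, stood at 356 CPM in members and 70.8 CPM in the others, 5.04-fold higher, with a median level of 2.51 and a maximum of 19.7 per 10000. WNT8A, a ligand of canonical WNT signalling, stood at 34.1 and 3.52 CPM, CDX2 at 78.0 and 12.98 CPM, and HOXC13 at 149 and 28.8 CPM. FOXA2, a forkhead factor of endoderm, notochord and floor plate, stood at 37.3 CPM in members and 4.91 CPM in the others, and was found in 73 members, 45.3%. NDRG1, an N-myc downstream regulated gene known to respond to hypoxia, stood at 257 and 44.7 CPM, and its 5 highest members gave 27.5% of its molecules. The rest of the 20 were GATD3AL2, the cytoskeletal FRMD3 and PALMD, APBB1IP, TCERG1L and the plasma apolipoprotein APOH, all between 5.53-fold and 8.90-fold higher.

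**Figure D2:**
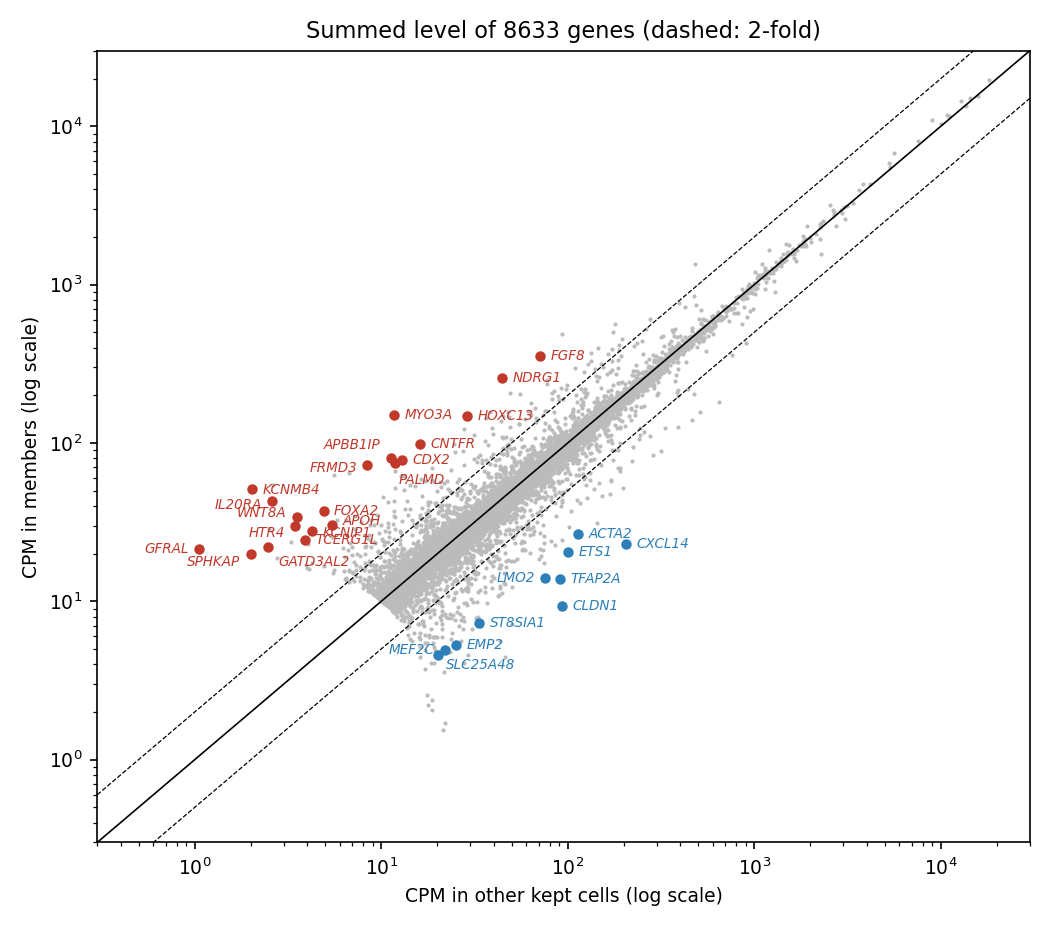
Summed CPM of 8633 genes in members (vertical) and in other kept cells (horizontal), both axes logarithmic, without the rule genes; the solid line marks equality and the dashed lines 2-fold. Red points are the 20 genes with the largest ratio among those with a symbol found in at least 25% of members, and blue points the 10 with the smallest among those found in at least 25% of other kept cells: KCNMB4 lies at 50.9 against 2.03 CPM and CLDN1 at 9.37 against 93.5 CPM.

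Among genes with a symbol found in at least 25% of other kept cells, those with the smallest ratio included ones of epithelia, vessels and contractile cells. CLDN1, a tight junction claudin, stood at 9.37 CPM in members and 93.5 CPM in the others. The chemokine CXCL14 stood at 23.0 against 205 CPM, TFAP2A, a factor of ectoderm and neural crest, at 13.8 against 91.4 CPM, and LMO2, a cofactor of blood and vessel formation, at 14.0 against 75.9 CPM. ETS1, EMP2, ST8SIA1, MEF2C, SLC25A48 and the smooth muscle actin ACTA2 completed the 10, with ratios of 0.206 to 0.234. Genes found in fewer cells could lie lower still, such as the endothelial CDH5 at 1.70 against 22.0 CPM.

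Axial position genes were mostly higher in members. HOX genes are expressed in nested domains along the body, with the higher-numbered groups toward the tail, and CDX factors help to switch them on. Of 11 tested posterior HOX genes (groups 10 to 13), 4 were over 2-fold higher and none over 2-fold lower, against 2.62% and 2.95% of all 8633 genes. The median log2 ratio of the 11 was 0.85. HOXC13, HOXC12 (179 against 63.2 CPM), HOXD12 (329 against 133) and HOXD11 (526 against 262) were the 4. HOXA13 (278 against 275 CPM) was level with the rest of the tissue, and HOXD13 (30.7 against 37.6 CPM) was the 1 of the 11 below it. Summed over the list, posterior HOX RNA stood at 3102 CPM in members (3057 to 3148) and 1797 CPM in the others.

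Of 18 tested trunk HOX genes (groups 3 to 9), all were above other kept cells, 5 of them over 2-fold, against 2.62% of all 8633 genes. The median log2 ratio of the 18 was 0.76, against -0.04 over all genes. HOXB9 stood at 1350 CPM against 479, and HOXA7 at 398 against 146. CDX2 and CDX4 (203 against 55.4 CPM) were both over 2-fold higher, and CDX4 was found in 154 of 161 members. CDX1 had no molecule in members and 0.497 CPM in the others. The HOX levels of members lay nearest to those of TBXT and SOX2 cells, whose posterior HOX sum was 3703 CPM, while TBXT and SHH cells stood at 1295 and MSGN1 and TBX6 cells at 1753 CPM. Some members also passed the TBXT and SOX2 limits of the nearest group, as given further on.

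**Figure D3:**
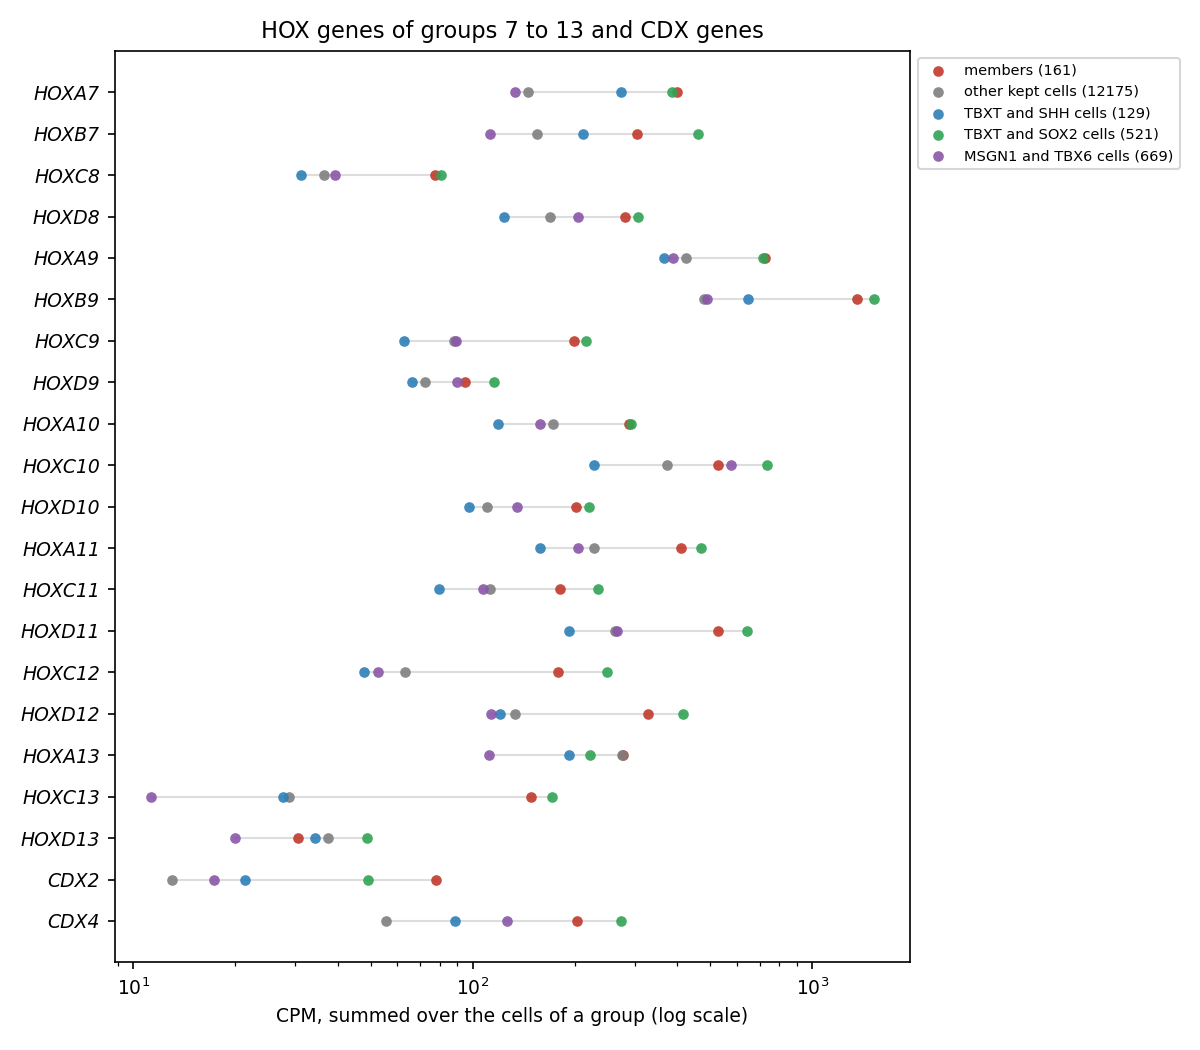
CPM, on a log axis, of HOX genes of groups 7 to 13 and of CDX2 and CDX4, with 1 point for each group of cells. The red points of the members lie close to the green points of TBXT and SOX2 cells for most genes, with HOXC13 at 149 and 171 CPM, and to the right of the other kept cells for most, but level with them at HOXA13 and to the left at HOXD13.

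FGF signalling genes were high on the side of ligands and feedback inhibitors and low on the side of the receptors FGFR2 and FGFR3. Of 20 tested, 7 were over 2-fold higher and 2 over 2-fold lower, against 2.62% and 2.95% of all 8633 genes. The median log2 ratio of the 20 was 0.37. The FGF list summed to 1899 CPM in members and 1267 CPM in the others. It stood at 2441 CPM in TBXT and SOX2 cells, 1657 in TBXT and SHH cells and 1459 in MSGN1 and TBX6 cells, so a high sum was not particular to members. Beside FGF8, the ligands FGF3 (34.9 against 13.9 CPM) and FGF19 (34.2 against 11.8 CPM) and the intracellular FGF13 (58.9 against 16.4 CPM) were higher. The inhibitors SPRY2 (206 against 82.2 CPM), SPRY4 (54.3 against 14.3) and IL17RD (292 against 140), which are transcribed in response to FGF in many tissues, made up the 7. FGFR2 stood at 46.0 against 152 CPM and FGFR3 at 12.1 against 43.3 CPM, while FGFR1, the receptor of early mesoderm, stood at 100 CPM (1.10-fold) in members. DUSP6, another target of FGF signalling, was at 63.5 against 121 CPM, so the feedback genes did not all lie on one side.

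WNT genes were mixed. Of 23 tested, 5 were over 2-fold higher and 1 over 2-fold lower, against 2.62% and 2.95% of all 8633 genes. The median log2 ratio of the 23 was 0.05. The WNT list summed to 2089 CPM in members and 1678 CPM in the others. It stood at 2636 CPM in TBXT and SOX2 cells, 1803 in TBXT and SHH cells and 2297 in MSGN1 and TBX6 cells. WNT8A, the targets AXIN2 (96.8 against 37.3 CPM) and SP5 (24.2 against 10.3), the R-spondin receptor LGR5 (27.8 against 12.7) and the WNT deacylase NOTUM (37.1 against 18.1) were the 5, and the R-spondin RSPO2 was lower at 17.4 against 38.9 CPM. WNT5A, a ligand of non-canonical signalling needed for axis extension in mice, was found in every member, at 763 CPM against 393. WNT3A stood at 75.8 against 51.5 CPM and was at 0 in 71 members.

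Retinoic acid genes lay mostly below the rest of the tissue. Of 10 tested, none was over 2-fold higher and 2 were over 2-fold lower, against 2.62% and 2.95% of all 8633 genes. The median log2 ratio of the 10 was -0.67. The retinoic acid list summed to 1041 CPM in members and 1534 CPM in the others. A low sum was shared by TBXT and SOX2 cells (1086 CPM) and TBXT and SHH cells (896 CPM), but not by MSGN1 and TBX6 cells (1522 CPM). ALDH1A2, the enzyme that makes retinoic acid in the embryonic trunk, stood at 66.6 CPM against 190 and was at 0 in 112 members, with 53.2% of its molecules in 5 cells. RDH10, which makes the retinal that ALDH1A2 uses, stood at 30.2 against 73.4 CPM. Of the other degrading enzymes, CYP26B1 showed little difference at 10.6 against 10.0 CPM. CYP26C1, below the test limit, stood at 9.54 against 6.41 CPM, a log2 difference of 0.57. The retinoid-binding proteins CRABP1 and CRABP2 stood at 68.7 against 50.3 and 704 against 991 CPM. The receptors RARB (34.8 against 57.4 CPM) and RXRA (33.9 against 51.7 CPM) were lower by less than 2-fold, and the retinol transporter STRA6 stood at 21.5 against 36.6 and the retinal reductase DHRS3 at 18.1 against 30.95 CPM. Also below the test limit, RARA stood at 2.73 against 2.60, RARG at 4.60 against 4.11, RXRG at 6.13 against 7.05 and ALDH1A3 at 1.36 against 5.47 CPM.

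The receptor for APELA was not higher in members than in other kept cells by summed level. APLNR stood at 8.35 CPM in members and 8.98 CPM in the others, and its other ligand APLN at 1.19 against 3.16 CPM, both below the test limit. The log2 difference of APLNR, -0.11, ran from -0.51 to 0.67 under other settings and was highest in cells assigned to 1 lipid barcode. APLNR and APLN were both highest in the endothelial cells, at 69.1 and 72.2 CPM, and APLNR stood at 25.7 CPM in MSGN1 and TBX6 cells.

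NOTCH genes lay below the level of the tissue, BMP genes mostly below it and hedgehog genes on both sides of it. Over all 8633 genes, 2.62% were over 2-fold higher and 2.95% lower, with a median log2 ratio of -0.04. A count of 1 gene is not read as a result about its list. Of 12 NOTCH and clock genes tested, none was over 2-fold higher, 4 were over 2-fold lower and all 12 lay below the others, with a median log2 ratio of -0.63. The 4 were the ligands DLL1 (58.1 against 132 CPM), JAG1 (21.5 against 57.4) and JAG2 (5.96 against 19.1) and the NOTCH target HES5 (51.8 against 198). The NOTCH and clock list summed to 983 CPM in members and 1487 CPM in the others. It stood at 1067 CPM in TBXT and SHH cells, 1503 in TBXT and SOX2 cells and 1833 in MSGN1 and TBX6 cells. Of 13 BMP and TGFB genes, 3 lay above the others, with a median log2 ratio of -0.39. Their list summed to 1398 CPM in members and 1852 CPM in the others. It was lower still in TBXT and SOX2 cells (1270 CPM) and MSGN1 and TBX6 cells (1116 CPM), and higher in TBXT and SHH cells (2718 CPM). ID1 (11.4 against 36.2 CPM) and SMAD6 (64.6 against 132 CPM), which respond to BMP, were over 2-fold lower. CHRD, a BMP antagonist of the organizer and notochord, was over 2-fold higher at 49.4 against 19.8 CPM, but 79.7% of its molecules lay in 5 members and 124 had none. CHRD stood at 593 CPM in the 8 members with SHH between 1 and 3 and at 10.8 CPM in the other 153, where its log2 difference turned to -0.92. Of 8 hedgehog genes tested, none was over 2-fold higher, 1 was over 2-fold lower and 4 lay above the others, with a median log2 ratio of 0.02. The 1 lower was SCUBE1 (8.52 against 18.0 CPM), the targets HHIP and PTCH1 stood at 47.7 against 27.8 and at 67.5 against 78.5 CPM, and the mediator GLI3 at 102 against 79.3 CPM.

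Markers of the other cells of the posterior end were mostly low in members, and the part of these cells in the results was not tested. No tested gene of the lists for neural tube, motor neuron, surface ectoderm, lateral plate, limb, endothelium, neural crest or blood was over 2-fold higher. Over 2-fold lower were 6 of 7 neural tube genes, 2 of 4 motor neuron genes, 5 of 6 surface ectoderm genes, 4 of 5 lateral plate genes, 5 of 7 limb genes, 5 of 6 endothelial genes, 2 of 3 neural crest genes and 5 of 5 haemoglobin genes. Over all 8633 genes the share was 2.95% lower and 2.62% higher. SOX2 was the neural tube gene that stood higher, at 93.9 against 65.3 CPM. The motor neuron factor LHX3 was at 0 in members, although MNX1 is a classical motor neuron marker, and ISL1 stood at 69.7 against 186 CPM. None of the 7 macrophage genes reached the test limit, with SPI1 and C1QA at 0.

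The range over single members was wider than these sums show. The summed level of the endothelial list ran from 0 to 8.96 per 10000 in members (median 0.406), with a sum of 71.7 against 221 CPM in the others. The surface ectoderm list ran from 0 to 44.1 (median 1.20), at 353 against 811 CPM, and the limb list from 0 to 31.2 (median 3.36), at 628 against 1531 CPM. The neural tube list ran from 0 to 15.2 at 196 against 354.2 CPM, the motor neuron list from 0 to 7.71 at 214 against 383 CPM, the lateral plate list from 0 to 17.0 at 339 against 686 CPM and the neural crest list from 0 to 19.8 at 110 against 257 CPM. Among the 21 members under a mitochondrial limit of 10%, the log2 difference turned positive for GATA4 (0.73), GATA6 (0.23), PRRX2 (0.021), WT1 (0.049) and TAL1 (0.94).

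Haemoglobin in members came almost wholly from 1 cell. HBBA stood at 428 CPM with that cell and at 26.3 CPM in the other 160, HBA1 at 203 and 12.7 CPM, and HBZ at 358 and 28.3 CPM. The cell gave 93.9% of the HBBA molecules in members.

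Single genes of the notochord, hindgut and intermediate mesoderm lists were exceptions, namely FOXA2, which is in both the notochord and hindgut lists, CHRD and PAX2. Over all 8633 genes 2.62% were over 2-fold higher and 2.95% lower. Among 6 tested notochord genes, FOXA2 and CHRD were over 2-fold higher, but the log2 difference of CHRD turned to -0.92 with SHH below 1. FOXA1 stood at 29.0 against 21.6 CPM, SOX9 at 83.5 against 101 CPM and NOTO, below the test limit, at 6.81 against 3.86 CPM. The notochord list summed to 278 CPM in members, 226 CPM in the others and 2356 CPM in TBXT and SHH cells, and ran from 0 to 45.1 per 10000 in members with a median of 1.79. Among 5 tested hindgut genes, with a median log2 ratio of -0.41, the same FOXA2 was over 2-fold higher. CDH1, the epithelial cadherin, was lower at 10.7 against 42.3 CPM, and EPCAM stood at 119 against 158 CPM. By share of cells EPCAM went the other way. After thinning it was found in 37.3% of members (29.8% to 45.2%) and 23.8% of other kept cells (23.1% to 24.6%). The hindgut list summed to 217 against 271 CPM and ran from 0 to 13.4 in members, and SOX17 stood at 0.170 against 2.28 CPM. PAX2, a paired-box factor of kidney precursors, stood at 146 CPM in members against 48.4 CPM, in 137 of 161 cells, while the other tested intermediate mesoderm genes OSR1 (16.2 against 43.5), WT1 (12.9 against 30.2) and GATA3 (8.86 against 18.7) were over 2-fold lower.

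Members were then set against 3 groups of like cells, none of which included a member. These are not the nearest groups by the rule. The 163 cells that shared the MNX1, APELA and SHH limits but had TBXT below 2 are described further on. The 1554 other cells with TBXT at 2 or more and SHH below 3 are not reported as a whole. The first was the 129 cells with TBXT at 2 or more and SHH at 3 or more, a rule that fits notochord. Of 8665 genes, 169 (1.95%) were over 2-fold higher in members and 367 (4.24%) over 2-fold lower, with a median log2 ratio of 0.00. Lower in members were the collagen COL8A1 (4.94 against 573 CPM), the tachykinin precursor TAC1 (0.511 against 97.4), the neuropeptide Y receptor NPY7R (0.170 against 34.6), the ion channel TRPV4 (0 against 33.9) and NINJ2 (0 against 24.8), the 5 with the smallest ratio. Other genes high in TBXT and SHH cells were present in members, such as MYO3A at 151 against 272 CPM. CTH, which makes cysteine from cystathionine, stood at 275 CPM in members and 944 CPM in these cells. Higher in members were GFRAL (21.3 against 0.610 CPM), IL20RA (42.9 against 3.66) and the haemoglobins HBBA, HBA1 and HBZ, whose ratios without the haemoglobin-high member were 1.02, 0.834 and 0.968. FGF8 stood level at 356 against 351 CPM, and FOXA2 at 37.3 against 26.02 CPM.

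The second group was the 521 cells with TBXT at 2 or more and SOX2 at 1 or more, the pair of genes used to mark neuromesodermal progenitors, which feed both spinal cord and paraxial mesoderm. It had the fewest genes past 2-fold of the 3, though the groups differ in cell number, as 128 (1.5%) of 8526 were over 2-fold higher in members and 91 (1.07%) over 2-fold lower, with a median log2 ratio of -0.02. The 2 definitions overlap, so some of this closeness is built in. The 48 members positive for SOX2 only and the 10 positive for SOX2 and a presomitic gene also passed these limits. They were left out of the second group only because members were taken first. Lower in members were ZIC2 (34.6 against 234 CPM) and HES5 (51.8 against 261 CPM), both of neural progenitors, the homeobox gene GBX2 (4.26 against 24.3), the adhesion receptor ADGRB1 (5.11 against 23.0) and SP8 (19.9 against 81.1), a factor downstream of WNT and FGF signals. WNT3A stood at 75.8 against 219 CPM and SOX2, which chose the second group, at 93.9 against 262. Higher in members were GFRAL (17.3-fold), the calcium-binding protein SCGN (45.3 against 2.83 CPM), GATD3AL2 (22.0 against 1.82), the pyrimidine-degrading enzyme DPYS (34.6 against 2.99) and DCDC2 (85.9 against 7.90), a microtubule-binding protein of cilia. Of 8 tested neuromesodermal genes, 5 were over 2-fold higher in members than in other kept cells, with a median log2 ratio of 1.56. The 5 were FGF8, WNT8A, CDX2, CDX4 and SP5, all counted above among the FGF, WNT or CDX genes, so they are not a separate result. The neuromesodermal list summed to 885 CPM in members, 309 CPM in the others and 1469 CPM in TBXT and SOX2 cells.

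The last group was the 669 cells with MSGN1 and TBX6 at 1 or more and TBXT below 2, a rule that fits presomitic mesoderm, the tissue from which somites form. Of 8473 genes, 319 (3.76%) were over 2-fold higher in members and 231 (2.73%) over 2-fold lower, with a median log2 ratio of -0.03. Lower in members were RIPPLY2 (1.53 against 42.0 CPM), which sets somite borders, the glycosyltransferase B3GALT5 (21.0 against 294), the calmodulin-binding PCP4 (24.2 against 301), SEPTIN3 (2.39 against 27.9) and the RNA-binding ELAVL2 (8.69 against 99.2). Higher were WNT8A (34.1 against 0.512 CPM), IL20RA (42.9 against 0.695), GATD3AL2 (22.0 against 0.366), GFRAL (21.3 against 0.548) and KCNMB4 (50.9 against 1.57). Against other kept cells, 2 of 6 tested posterior presomitic genes and 2 of 5 anterior presomitic genes were over 2-fold lower in members and none was over 2-fold higher. In that comparison 2.95% of all 8633 genes were lower and 2.62% higher. The 2 posterior presomitic genes were DLL1, counted above among the NOTCH genes, and CDH11, counted below among those of epithelial and mesenchymal state. They are not a separate result.

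**Figure D4:**
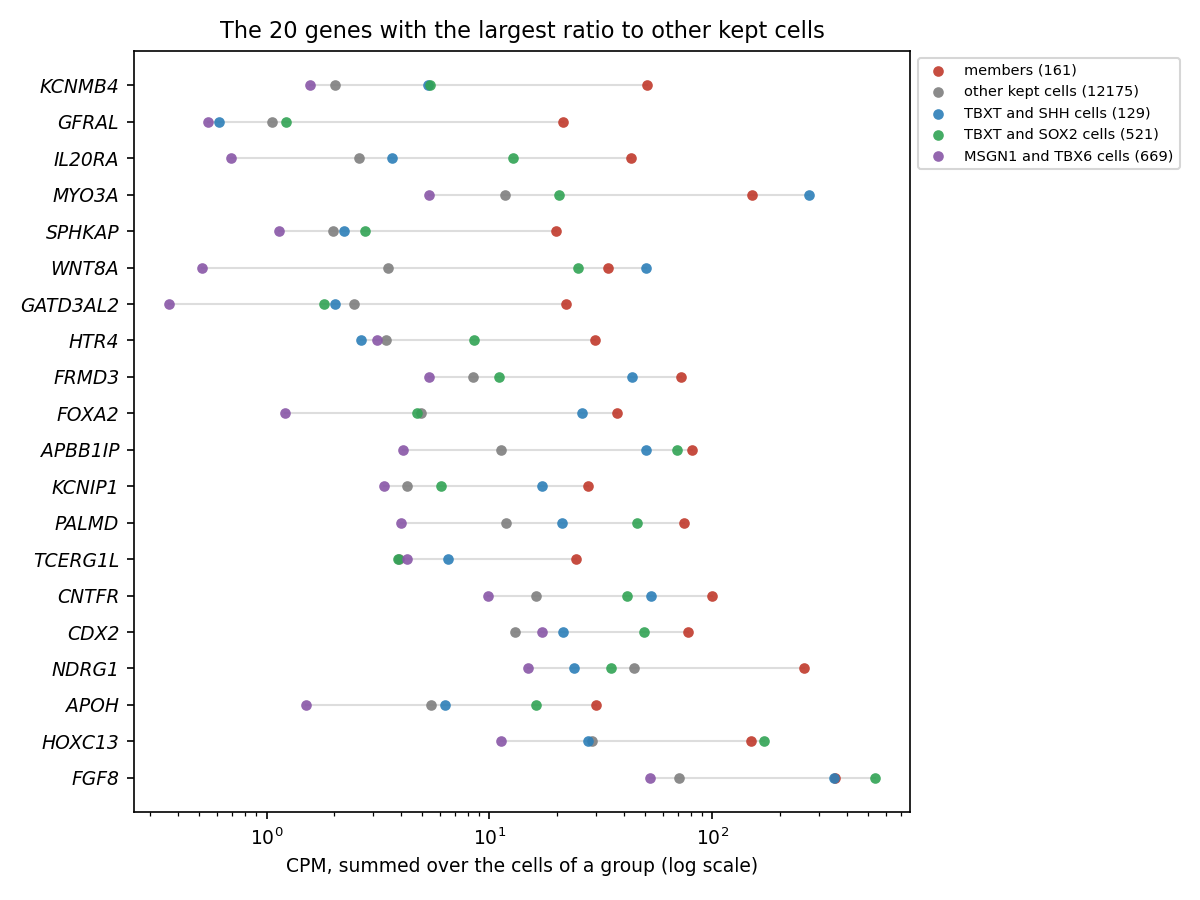
CPM, on a log axis, of the 20 named genes with the largest ratio of members to other kept cells, with 1 point for each group of cells. The members lie far to the right of the 3 like groups plotted for KCNMB4, GFRAL, SPHKAP, GATD3AL2 and NDRG1, whereas MYO3A and WNT8A are higher in TBXT and SHH cells (272 and 50.4 CPM) and FGF8 and HOXC13 in TBXT and SOX2 cells (536 and 171 CPM). The 163 cells with MNX1 and APELA but TBXT below 2 are not plotted. In them GFRAL and NDRG1 lie above the members and KCNMB4 below.

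The members were not uniform, and the splits below were made after values had been seen and are descriptions. By the level of SOX2 and of the presomitic genes TBX6 and MSGN1, 48 members were positive for SOX2 only, 25 for a presomitic gene only, 10 for both and 78 for neither. KCNMB4 stood at 65.4, 45.4, 24.1 and 47.9 CPM in these sets, and HOXB9 at 1471, 1371, 1733 and 1248 CPM, so neither belonged to 1 of them. TBXT was at 1484 CPM in the 10 cells positive for both, against 747 to 980 CPM in the other sets.

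Some genes also followed MNX1 within the members, and since the rule used MNX1 and the genes given were picked for their values, no weight rests on their number. Members were ranked by MNX1 into 3 sets of 54, 54 and 53 cells, with median depths of 32473.5, 35153 and 25361 molecules from low to high. NDRG1 stood at 73.2, 262 and 563 CPM from the lowest to the highest set, and TF, the transferrin gene, at 77.8, 153 and 301 CPM. APOH stood at 8.32, 32.2 and 64.2 CPM, PALMD at 30.0, 74.2 and 150 CPM, and FOXA2 at 19.6, 42.4 and 60.01 CPM. MYO3A followed the same order at 65.3, 163 and 280 CPM, as did SCGN at 13.7, 37.1 and 111 CPM and DCDC2 at 40.4, 87.3 and 161 CPM. The opposite order held for DLL1 at 102, 42.4 and 7.06 CPM, TBX6 at 105, 47.8 and 33.2 CPM, WNT3A at 99.8, 67.3 and 47.3 CPM, FOXC2, a factor of paraxial mesoderm, at 171, 133 and 31.8 CPM, and CYP26A1 at 40.8, 24.9 and 12.7 CPM. CYP26A1 rested on 167 molecules over all members, 25.7% of them from 1 cell. TBXT itself stood at 830, 860 and 817 CPM, FGF8 at 316, 383 and 387 CPM and HOXB9 at 1243, 1370 and 1502 CPM, so these differed far less along MNX1.

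**Figure D5:**
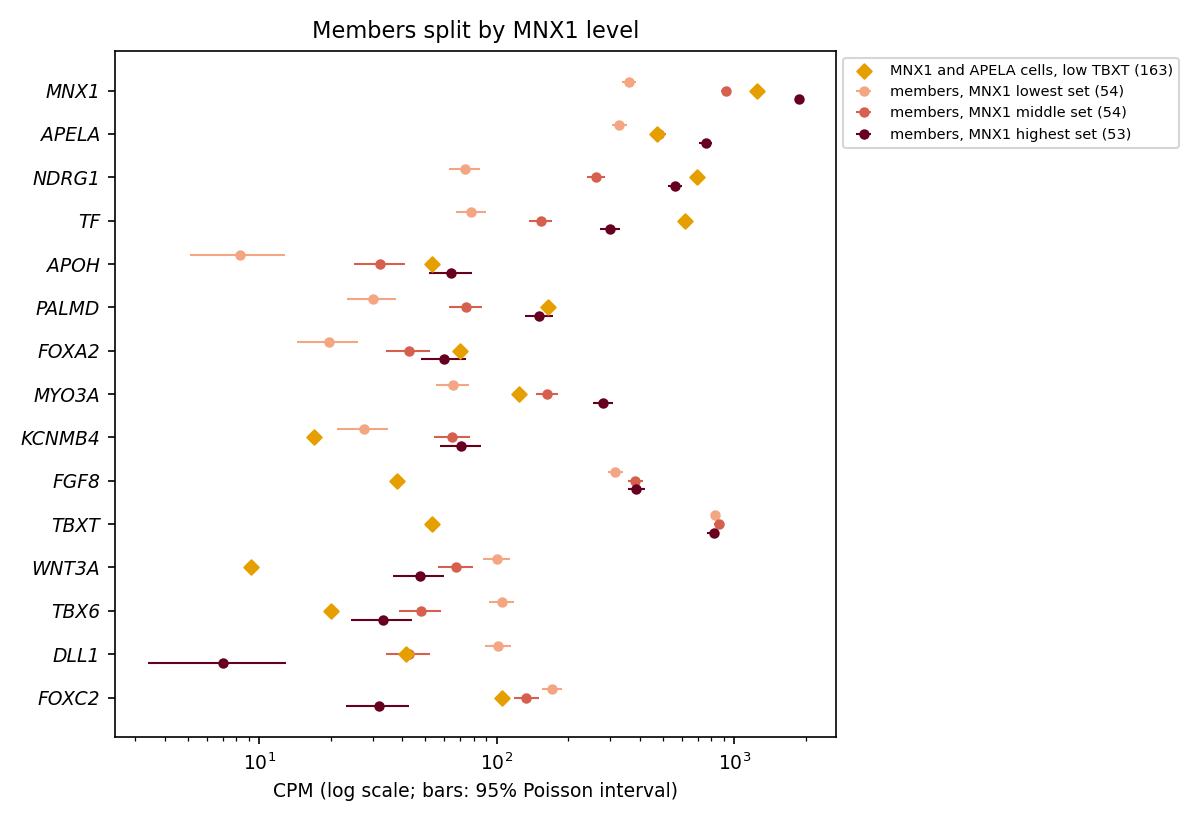
CPM, on a log axis, of 15 genes in members ranked into 3 sets by MNX1 level (circles, with exact 95% Poisson intervals that cover counting error only) and in 163 cells positive for MNX1 and APELA with TBXT below 2 and SHH below 3 (diamonds). NDRG1 runs from 73.2 to 563 CPM and DLL1 from 102 to 7.06 CPM along the sets, while TBXT stays between 817 and 860 CPM and is 53.1 CPM in the diamonds.

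Members were also split by FOXA2. The 29 members with FOXA2 at a level of 1 or more had 878 CPM of NDRG1 against 150 CPM in the other 132, 498 against 98.9 CPM of TF, 135 against 17.2 CPM of DPYS, 138 against 29.4 CPM of SCGN, 349 against 117 CPM of MYO3A and 201 against 45.8 CPM of CRABP1. TBX6 stood at 16.2 against 76.5 CPM and DLL1 at 9.24 against 66.5 CPM. TBXT was close in both, at 892 and 828 CPM, and so was FGF8, at 376 and 353 CPM. The other rule genes differed, with MNX1 at 1390 against 841 CPM and APELA at 722 against 444 CPM. NDRG1, TF, SCGN, MYO3A, TBX6 and DLL1 also followed MNX1 above, so the splits by FOXA2 and by MNX1 are not separate results. TF depended on few cells, since 38.8% of its molecules in members lay in 5 of them.

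The 163 kept cells that passed the MNX1, APELA and SHH limits but had TBXT below 2 differed from members in both directions. MNX1 stood at 1240 and APELA at 474 CPM in them, against 922 and 485 CPM in members. NDRG1 stood at 695, TF at 622, FOXA2 at 69.8, EPCAM at 198, KRT7 at 551 and PAX2 at 232 CPM, each above its value over all members (257, 158, 37.3, 119, 218 and 146 CPM). FGF8 stood at 38.1, WNT8A at 0.401, WNT3A at 9.22 and KCNMB4 at 17.0 CPM, each below the members. GFRAL stood at 29.9 CPM in them and 21.3 CPM in members, so GFRAL was shared by cells with MNX1 and APELA on both sides of the TBXT limit, whereas FGF8, WNT8A and WNT3A were with the TBXT side. Haemoglobin-high cells numbered 0 among these 163, and their median depth was 25565 molecules.

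Genes of homocysteine metabolism, glycolysis and the cell cycle mostly stayed within 2-fold, while those of epithelial and mesenchymal state lay mostly lower. So did the listed T-box and homeobox factors, a list counted without the rule genes TBXT and MNX1 and apart from the HOX and CDX genes. Over all 8633 genes, 2.62% were over 2-fold higher and 2.95% lower. Of 27 tested genes of homocysteine, folate and glutathione metabolism, 1 was over 2-fold higher in members and none lower, with a median log2 ratio of -0.07. The 1 was GCLC, the catalytic subunit of glutathione synthesis, at 99.2 against 48.6 CPM, and it stood at 102 CPM in TBXT and SOX2 cells. AHCY, which forms homocysteine from S-adenosylhomocysteine, stood at 213 against 218 CPM and MTR, which returns homocysteine to methionine, at 14.1 against 13.1 CPM. Of 15 glycolysis genes, LDHA was over 2-fold higher at 187 against 89.8 CPM and the median log2 ratio was 0.15. No tested gene of 19 for S phase or 17 for G2 and M phase passed 2-fold, with median log2 ratios of -0.28 and -0.09. Only 2 of the 19 S phase genes lay above the others, and the list summed to 2429 against 2908 CPM. Of 13 stress genes tested, the immediate early genes FOS (112 against 244 CPM) and EGR1 (18.1 against 46.5 CPM) were lower. Of 19 genes of epithelial and mesenchymal state, none was over 2-fold higher and 6 were lower, among them FN1 (69.9 against 191 CPM) and CDH11 (58.1 against 171 CPM), with the N-cadherin CDH2 at 272 against 182 CPM. The median log2 ratio of the 19 was -0.49. SALL1 (365 against 164 CPM), a zinc finger factor, was the 1 of 11 axial growth timing genes over 2-fold higher, and the heterochronic LIN28A and LIN28B stood at 285 against 225 and 159 against 230 CPM. Of the 14 T-box and homeobox factors tested in that list, none was over 2-fold higher and 7 were lower, including MEIS2 (156 against 509 CPM) and MEIS1 (76.7 against 221 CPM). The median log2 ratio of the 14 was -1.25. EPHA1 (24.9 against 11.7 CPM) was the 1 higher and EFNA5 (10.2 against 24.2 CPM) the 1 lower of 13 ephrins and EPH receptors.

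Members carried lipid barcodes less often than the tissue at large. A barcode was assigned to 50 members, or 31.1%, and to 5792 kept cells, or 47.0%. Members were 7 of 1187 cells with SBC2 (0.590%, 0.237% to 1.21%), 40 of 3580 with SBC3 (1.12%, 0.799% to 1.52%), 3 of 1025 with SBC7 (0.293%, 0.0604% to 0.853%) and 111 of 6544 without an assigned barcode (1.70%, 1.40% to 2.04%). Of the 1715 kept cells with TBXT at 2 or more and SHH below 3, 1234 had no assigned barcode. A low barcode share was therefore not particular to members. Among those 1715, members were 10.4% of cells with SBC2, 11.4% with SBC3, 4.84% with SBC7 and 8.995% without, and no interval was computed. Per the labels each barcode marks cells of 1 tissue, with no stated treatment, so these shares cannot be read as an effect of homocysteine. Median depth was 38086 molecules in SBC3 members and 26418 in members without a barcode. KCNMB4 stood at 57.9 CPM in SBC3 members and 50.3 CPM in those without, FGF8 at 323 and 373 CPM, and HOXB9 at 1325 and 1405 CPM. The haemoglobin-high member was 1 of the 3 with SBC7.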

How the data were processed

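The deposited values are raw molecule counts for each cell and gene. The authors made them with the BD Rhapsody pipeline 1.11, per the file headers, on GRCg7b with Ensembl release 107, counting intronic reads and fixing the cell number at 60000. The table has 28190 gene columns and 6 lipid barcode columns. Intronic reads favour genes with long introns. Counts of a group were summed, so deeper cells weigh more, and scaled to 1000000 (CPM). A gene was compared at an average of at least 10 CPM over the 2 groups, past 2-fold. Intervals are exact at 95% and cover counting error only. A lipid barcode, SBC2, SBC3 or SBC7 only, was assigned above 5 times its background median and 3 times the next one. Depth thinning used 4000 molecules and seed 1. No doublet caller was run. The scripts ran on scipy 1.17.1, pandas 2.3.3, numpy 2.4.6 and Python 3.11.15. The ratio and interval code was tested on simulated data. Named genes were the 20 highest and 10 lowest ratios found in at least 25% of cells, the 5 highest and lowest against each like group, and, from each list, the 5 with the highest CPM in members and the 3 with the largest ratio, all of the label, apelin and retinoic acid lists, and genes picked after their values were seen. The members and gene lists were chosen with earlier results of these data known. Some genes of the lists are not reported here. Coordinates are RefSeq's on GRCg7b.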

Additional observations from a re-analysis of the deposited data

Results flagged for a closer look

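Molecules lay in the lipid barcode columns SBC4, SBC5 and SBC8, which the assignment of cells did not use. Summed over all members there were 35 molecules of SBC4, 24 of SBC5 and 18 of SBC8. Each sum was above the 3 counts that a count of 0 allows, but was not set against a background level. Background medians of the barcodes used, SBC2, SBC3 and SBC7, were 62, 72 and 78 molecules in cell barcodes of under 500 gene molecules. SBC4, SBC5 and SBC8 were found in 12.4%, 13.7% and 8.07% of members and in 22.8%, 15.2% and 12.9% of kept cells.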

How the results depend on the processing

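There was 1 pooled sample, so no value has a replicate, and no paired analysis was possible because the labels tie no cell to a treatment. Of 249 values of genes and lists, each recomputed under 13 to 16 other settings, 112 were past 2-fold, 105 of these kept their sign and 57 stayed past 2-fold in every setting run for them. Some settings, and the counts against like groups and gene values under all of them, were chosen after seeing the data. The share of members of 1.31% became 1.56% with TBXT at least 1, 1.01% at 4, 0.940% with MNX1 and APELA at least 2 and 0.863% among cells assigned to 1 lipid barcode. The log2 difference of CYP26A1 of 0.71 became 0.33 with SHH below 1, 0.38 with TBXT at least 4, 0.34 without the 10% deepest cells and 0.40 in assigned cells. That of the posterior HOX sum, 0.79, became 0.75 at 10% mitochondrial, 0.82 with SHH below 1, 0.84 with TBXT at least 4, 0.74 with MNX1 and APELA at least 2, 0.82 without the 10% deepest cells, 0.82 in assigned cells, 0.85 as a mean per cell and 0.86 between the depth quartiles. With an average CPM of at least 1, 619 genes were higher and 850 lower (226 and 255 before), 749 and 1075 against TBXT and SHH cells, 636 and 425 against TBXT and SOX2 cells, and 1082 and 618 against MSGN1 and TBX6 cells, as more genes were compared. Against TBXT and SHH cells, genes higher were 297 at 10% mitochondrial, 256 without the 10% deepest cells, 256 as a mean per cell and 368 between the depth quartiles, where 641 were lower. Against TBXT and SOX2 cells they were 239 higher and 177 lower at 10% mitochondrial, and 202 and 138 between the depth quartiles, where 489 were higher against MSGN1 and TBX6 cells. Except for the mean per cell, fewer cells entered these, and the cause was not tested. At 10% mitochondrial, with 21 members, GATA4 turned to 0.73, GATA6 to 0.23, PRRX2 to 0.021, WT1 to 0.049 and TAL1 to 0.94. CHRD turned to -0.92 with SHH below 1, and GATA3 to 0.16 in assigned cells.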
